A study of Rattus norvegicus with 18 samples.

Results

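A set of 8 genes used to recognise adipose progenitors and stromal cells, Mme, Dclk1, Plac9, Pdgfra, Cd34, Dpp4, Dpt and Gsn, were followed in rat subcutaneous abdominal fat after gastric bypass. Every probe set whose only gene symbol in the platform annotation was 1 of these was taken. That gave 13 probe sets for 7 genes, of 31099 probe sets and 14217 named genes on the array. No probe set carried the single symbol Cd34, and that gene was not analysed here. Values of fat in the 3 groups had entered the choice of the genes, so their differences in fat are given as a description, with no test.

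RNA from 9 samples of fat and 9 of hypothalamus was hybridised to 1 array each. In each tissue 3 arrays came from rats labelled Pair-Fed, which ate as much as the treated rats. A further 3 came from rats labelled RYGB-Success, which were losing weight after Roux-en-Y gastric bypass, and 3 from rats labelled RYGB-Fail, which were gaining weight. The design text calls the 3 arrays of a group biological replicates, so p-values measure the spread between those samples. The sources used here do not give strain, sex, age or time after surgery, nor whether the Pair-Fed rats had a sham operation.

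White fat holds many more cell types than adipocytes. Its stroma contains fibroblast-like progenitors that lie along vessels and in the connective tissue between lobules, that divide, and that can turn into fat-storing adipocytes or into matrix-producing fibroblasts. Platelet-derived growth factor receptor alpha, encoded by Pdgfra, and the sialomucin CD34 are the usual surface marks of these cells. The peptidase DPP4 marks progenitors of the connective tissue between lobules. Mme encodes neprilysin, a membrane peptidase that cleaves natriuretic peptides, enkephalins and amyloid beta. Dclk1 encodes a kinase that binds microtubules, Plac9 a small secreted protein first described in placenta, Dpt the matrix protein dermatopontin and Gsn the actin-severing protein gelsolin. Apart from Mme, Dpp4 and Pdgfra none of the 7 measured genes encodes a cell surface protein, and Gsn and Dpt are also made by other mesenchymal cells.

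The 100 bases before the start of 5 of the genes are shown because 4 of them held the probe sets with the largest differences of RYGB-Success from Pair-Fed in fat, Dpt through its second probe set 1373947_at, and the fifth, Gsn, had the smallest. They are RefSeq sequence of the GRCr8 assembly, which is not the array's design, on the gene's strand from 5′ to 3′. Capitals mark matches, on either strand, to a TATA box with the letters TATAAA, to a GC box with the letters GGGCGG or to a CCAAT box.
Mme: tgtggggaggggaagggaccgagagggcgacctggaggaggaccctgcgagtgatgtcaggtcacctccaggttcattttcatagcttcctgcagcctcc
Dclk1: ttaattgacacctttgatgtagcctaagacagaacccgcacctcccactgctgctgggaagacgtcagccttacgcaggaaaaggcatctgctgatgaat
Plac9: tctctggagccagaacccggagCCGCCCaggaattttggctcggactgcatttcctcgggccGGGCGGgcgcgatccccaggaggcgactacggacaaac
Dpt: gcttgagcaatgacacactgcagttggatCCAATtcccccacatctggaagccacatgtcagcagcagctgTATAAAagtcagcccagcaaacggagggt
Gsn: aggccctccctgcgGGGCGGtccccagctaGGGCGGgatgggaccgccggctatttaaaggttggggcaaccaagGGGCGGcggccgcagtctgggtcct
The Mme window lies at chr2:149872397-149872496 on the plus strand and the Dclk1 window at chr2:141782784-141782883 on the plus strand. Plac9 was read at chr16:1481053-1481152 on the minus strand, Dpt at chr13:79656241-79656340 and Gsn at chr3:39008832-39008931, both on the plus strand. For Mme, Dclk1, Plac9 and Gsn the start in the table lies inside the annotated span of the gene, so these windows belong to 1 of several transcripts. The annotated span of Plac9 ends at 1481060, a few bases inside its window. Neither the Mme nor the Dclk1 window held any of the 3 motifs. Dpt had a TATA box and a CCAAT box, and Plac9 and Gsn had 2 and 3 GC boxes. Over all 33469 promoters of the table, windows of the same length held the TATA box in 5.78%, the GC box in 21.6% and the CCAAT box in 17.1%. Guanine and cytosine made up 61% of the Mme window, 50% of that of Dclk1, 66% of that of Plac9, 52% of that of Dpt and 71% of that of Gsn, beside a median of 54% over the table. No motif of the 3 was thus in all 5 windows, and a match is a description of letters only.

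The deposited values are linear signal intensities, and every difference below is between means of log2 signal, so that a difference of 1 is a doubling. In fat 11 of the 13 probe sets were in the upper 60% by mean signal, at a mean of at least 88.9, and were fitted among 18625 probe sets. The other two, Dclk1 1380429_at and Plac9 1393812_at, were below it, with fat signals from 2.69 to 165 and from 4.80 to 296. Median array signals in fat were 98.2 to 200 on 8 arrays and 288 on RYGB-Fail 3. Its beta-actin control probe sets read 2.46 times as high at the 3′ as at the 5′ end, where the others gave 12.0 to 24.3, and it had the lowest weight in a weighted fit, 0.175. With limma, 0 of 18625 probe sets passed an adjusted p of 0.05 in each of the 3 fat comparisons, while 342 were higher and 563 lower at an unadjusted p under 0.05 in RYGB-Success against Pair-Fed. Those counts were 264 and 237 for RYGB-Fail against Pair-Fed, and 638 and 422 for RYGB-Success against RYGB-Fail. Without RYGB-Fail 3, limma called 947 probe sets higher and 169 lower in RYGB-Success against RYGB-Fail, and 41 higher and 1 lower in RYGB-Fail against Pair-Fed. Without RYGB-Success 1 it called 19 higher and 3 lower in RYGB-Success against Pair-Fed, and 13 higher in RYGB-Success against RYGB-Fail. The 3 comparisons share their arrays pair by pair, and their values for a gene are not independent of one another.

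All 7 measured genes had a lower mean in RYGB-Success fat than in Pair-Fed fat. Taken by the probe set with the highest mean fat signal, they ran from 4.96-fold lower for Mme to 1.19-fold lower for Gsn, and Dpt 1373947_at, a second probe set of its gene, was 6.09-fold lower. In 6 of the 7, by the same choice of probe set, every RYGB-Success array was below every Pair-Fed array, a state found downward in 7.69% of all probe sets tested. Gsn was the exception. The median over the 7 genes was -1.50, beside 0.11 over all probe sets tested, of which 41.8% were lower. The mean of RYGB-Fail fat lay between those of the other two groups for every gene except Gsn. In bulk tissue, fewer cells of a type and less RNA per cell cannot be told apart.

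Mme, the neprilysin gene at chr2:149806826-149957381 in GRCr8, was measured by 1 probe set. Its signals were 737, 655 and 1124 in Pair-Fed fat, 142, 184 and 170.1 in RYGB-Success fat, and 625, 540.4 and 489 in RYGB-Fail fat. The 3 groups did not overlap at all. Pair-Fed was highest, RYGB-Fail just below it and RYGB-Success far below both. Mean log2 levels were 9.67 ± 0.41, 9.10 ± 0.18 and 7.36 ± 0.19 (SD, n = 3) in the order Pair-Fed, RYGB-Fail, RYGB-Success. RYGB-Success was lower than Pair-Fed by a log2 difference of -2.31 ± 0.36 (SE) and lower than RYGB-Fail by -1.74 ± 0.36, a 3.34-fold gap. The difference of RYGB-Fail from Pair-Fed was -0.57 ± 0.36, and the highest RYGB-Fail array, at 625, was close to the lowest Pair-Fed array, at 655. Leaving out any 1 of the 3 RYGB-Success arrays gave -2.39 to -2.20 for RYGB-Success against Pair-Fed. With the Pair-Fed arrays also left out in turn the range was -2.47 to -2.08. Without RYGB-Fail 3 the values for RYGB-Success against RYGB-Fail and RYGB-Fail against Pair-Fed were -1.82 and -0.49.

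**Figure D1:**
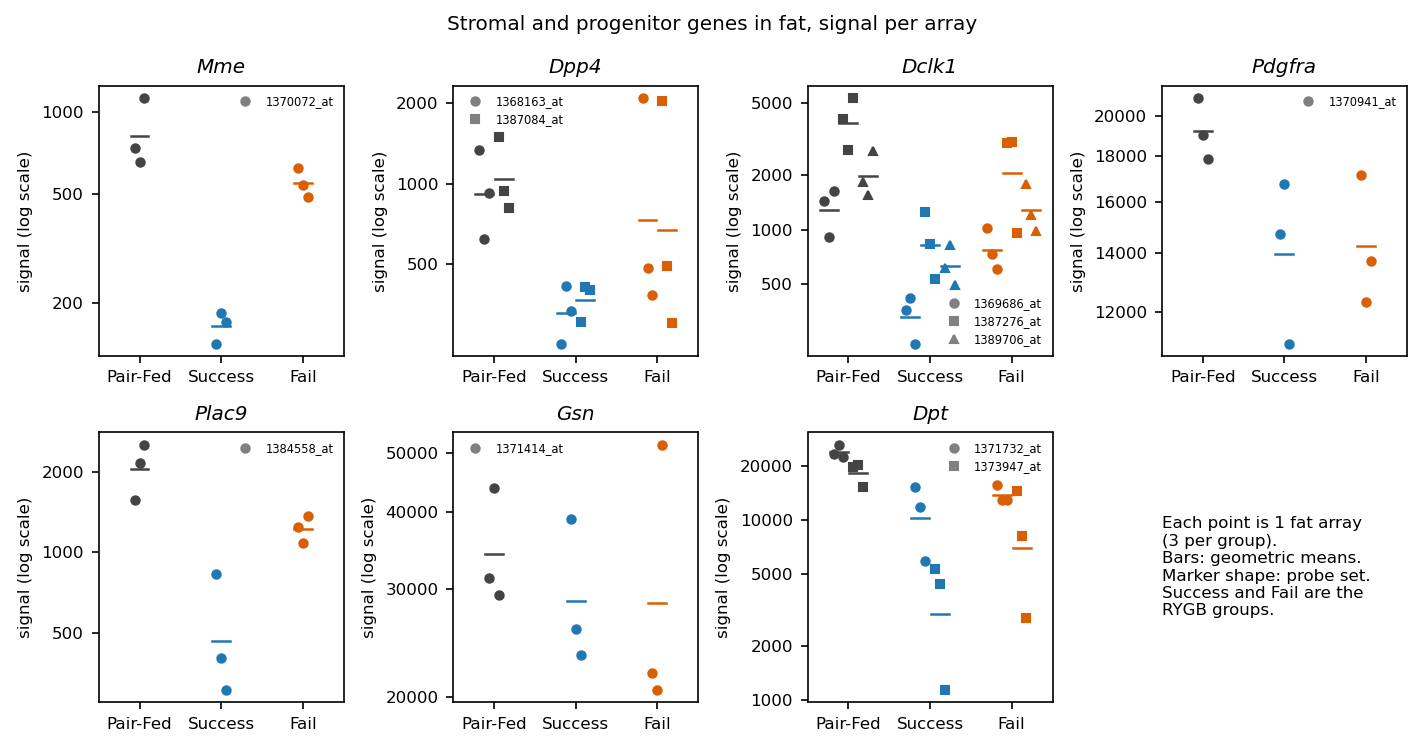
Signal of each fat array on a log axis, by gene and group, for the 11 probe sets in the upper 60% of fat. Points are arrays (3 per group), bars are geometric means and marker shapes tell the probe sets of a gene apart. The 3 groups of Mme do not overlap, RYGB-Success is low for Mme, Dclk1, Plac9, Dpp4 and Dpt, the first RYGB-Fail array stands high for Dpp4, and the groups of Gsn overlap.

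Dpp4, a peptidase that removes dipeptides from hormones and chemokines, was low in RYGB-Success and uneven in RYGB-Fail. By 1387084_at its signals were 1494, 939 and 811 in Pair-Fed fat, 305, 409 and 399 in RYGB-Success fat, and 2039, 493 and 300.5 in RYGB-Fail fat. By 1368163_at they were 1337, 622 and 921, then 252, 416 and 334, then 2087, 486 and 383. Both probe sets put the 3 RYGB-Success arrays below all Pair-Fed arrays, and both show RYGB-Fail 1 above every other array and the other two RYGB-Fail arrays near RYGB-Success. The RYGB-Success difference from Pair-Fed was -1.50 ± 0.59 and -1.48 ± 0.58 by the 2 probe sets. For RYGB-Fail it was -0.64 ± 0.59 and -0.33 ± 0.58, smaller than or close to its own error. Without RYGB-Fail 1 it became -1.44 and -1.09, without RYGB-Fail 3 -0.06 and 0.14, and with array weights, which favour RYGB-Fail 1, 0.33 and 0.56. For Dpp4 the place of RYGB-Fail was therefore set by single arrays. RYGB-Success against RYGB-Fail was -0.87 ± 0.59 by 1387084_at, and -0.06 without RYGB-Fail 1.

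Pdgfra, the growth factor receptor that defines the lineage, differed little. Its signals were 20943, 19038 and 17866 in Pair-Fed fat, 14686, 16728 and 11045 in RYGB-Success fat, and 17163, 12306 and 13690.0 in RYGB-Fail fat. Both bypass groups lay below the Pair-Fed arrays and overlapped each other. The differences from Pair-Fed were -0.46 ± 0.24 and -0.43 ± 0.24, 1.38-fold and 1.35-fold, and the first was -0.30 without RYGB-Success 3. Between the bypass groups the difference was -0.03 ± 0.24, with values from -0.16 to 0.14 when single arrays were left out, -0.33 after median centring and -0.42 after quantile normalization. Mme and Pdgfra are both used as marks of stromal cells, and the same 6 arrays gave differences of -2.31 and -0.46.

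Dclk1, the microtubule-associated kinase, had 3 probe sets in the upper 60% of fat. The one with the highest fat signal, 1387276_at, read 4066, 2735 and 5307 in Pair-Fed fat, 1254, 834 and 538 in RYGB-Success fat, and 3005, 3047 and 954 in RYGB-Fail fat. RYGB-Success was below all Pair-Fed arrays, and RYGB-Fail 3 lay among the RYGB-Success values while RYGB-Fail 1 and 2 lay inside the Pair-Fed range. By 1369686_at the signals were 1434, 909.9 and 1642, then 360.2, 420.0 and 235, then 1024, 730.1 and 611. By 1389706_at they were 1821, 1554 and 2722, then 612, 824 and 498, then 1798, 1203 and 980.1. All 3 probe sets kept RYGB-Success clear of Pair-Fed, and for the latter pair RYGB-Success was also clear of RYGB-Fail. RYGB-Success minus Pair-Fed was -2.24 ± 0.48, -1.97 ± 0.38 and -1.65 ± 0.36 in the order named. RYGB-Fail minus Pair-Fed was -0.92 ± 0.48, -0.74 ± 0.38 and -0.62 ± 0.36, and by 1387276_at it was -0.36 without RYGB-Fail 3. RYGB-Success minus RYGB-Fail was -1.32 ± 0.48, -1.23 ± 0.38 and -1.03 ± 0.36.

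Plac9, the small secreted protein gene, followed the same order of groups as Mme. Its probe set 1384558_at read 1574, 2153 and 2519 in Pair-Fed fat, 829, 403 and 307 in RYGB-Success fat, and 1244, 1089 and 1366 in RYGB-Fail fat. No 2 groups overlapped. Log2 differences were -2.13 ± 0.39 for RYGB-Success against Pair-Fed, -0.74 ± 0.39 for RYGB-Fail against Pair-Fed and -1.39 ± 0.39 for RYGB-Success against RYGB-Fail, and the latter pair were -0.81 and -1.31 without RYGB-Fail 3. Mme and Plac9 were the only members, of the 7 by their highest probe set, whose RYGB-Success arrays were all below their RYGB-Fail arrays, where 2.61% of all probe sets tested were.

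Dpt, a matrix protein that binds decorin and fibronectin, was lower in both bypass groups. By 1371732_at its signals were 23156, 26183 and 22482 in Pair-Fed fat, 15168, 11842 and 5938 in RYGB-Success fat, and 15735, 12907 and 12997 in RYGB-Fail fat. By 1373947_at they were 19646, 20145 and 15173, then 5315, 4414 and 1133.5, then 14510.0, 8141 and 2846. Every bypass array was below every Pair-Fed array by both probe sets, and RYGB-Success 3 was the lowest array of all by both. The 2 probe sets gave different sizes, -1.23 ± 0.32 and -2.61 ± 0.62 for RYGB-Success and -0.79 ± 0.32 and -1.39 ± 0.62 for RYGB-Fail against Pair-Fed. The value of -1.39 was -0.74 without RYGB-Fail 3. Between the bypass groups the differences were -0.44 ± 0.32 and -1.22 ± 0.62, and without RYGB-Success 3 they were -0.04 and -0.52.

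Gsn, the actin-severing protein gene, showed no separation. Its signals were 31219, 43768 and 29383 in Pair-Fed fat, 38969, 25858 and 23388 in RYGB-Success fat, and 21894, 20531 and 51563 in RYGB-Fail fat. The highest and the lowest of the 9 arrays, RYGB-Fail 3 and RYGB-Fail 2, belonged to the same group. Differences from Pair-Fed were -0.26 ± 0.36 for RYGB-Success and -0.26 ± 0.36 for RYGB-Fail, and the latter was -0.69 without RYGB-Fail 3 and -0.03 without RYGB-Fail 2. The difference between the bypass groups was 0.01 ± 0.36, and it turned with the scaling, from -0.45 after quantile normalization to 0.43 with array weights, and was 0.44 without RYGB-Fail 3.

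**Figure D2:**
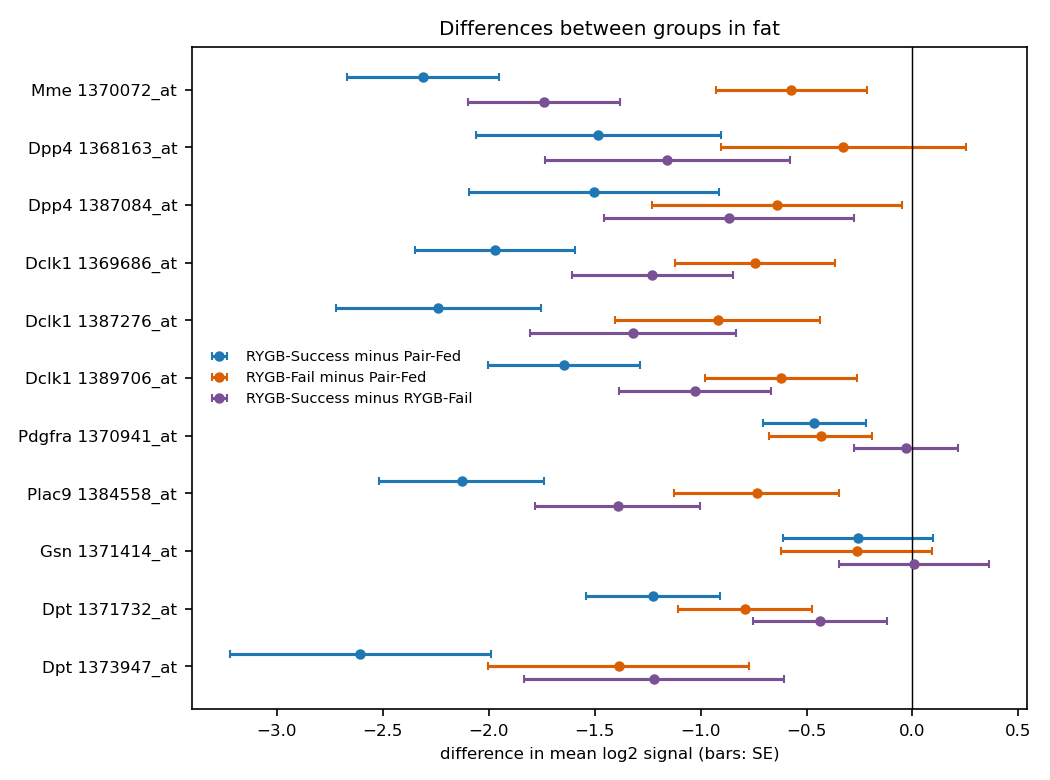
Differences in mean log2 signal between groups of fat for the same 11 probe sets, with the SE of the fit over all 9 fat arrays as bars. The RYGB-Success minus Pair-Fed values run from -2.61 for Dpt 1373947_at to -0.26 for Gsn, and the RYGB-Fail minus Pair-Fed value is nearer to 0 for every probe set shown except Gsn and is close to the RYGB-Success value for Pdgfra.

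Over the 7 genes in RYGB-Fail against Pair-Fed, 7 means were lower and the groups of 4 genes, Mme, Plac9, Pdgfra and Dpt, did not overlap, where 4.33% of all probe sets tested were clear downward. The median was -0.64, beside -0.09 over all probe sets, of which 58.1% were lower. In RYGB-Success against RYGB-Fail 6 means were lower and that of Gsn was higher, with a median of -0.87 beside 0.17 over all probe sets, of which 37.4% were lower. That median was -0.34 without RYGB-Fail 1 and -1.31 without RYGB-Fail 3. These counts rest on probe sets chosen on the same arrays and support nothing beyond their description. Centring each array on its median moved the median over all probe sets from 0.11 to -0.27 for RYGB-Success against Pair-Fed, and the members' median from -1.50 to -1.88 with it.

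The genes whose profile over the 9 fat arrays was nearest to that of Mme were sought among 10144 named genes, by the root mean square difference of log2 signals after subtracting each probe set's own mean. Nid2, encoding the basement membrane protein nidogen 2, was nearest at 0.375, followed by LOC102555145 at 0.38, Loxl1, a collagen and elastin cross-linking enzyme, at 0.429, Ndn, encoding necdin, at 0.469, and Plac9 at 0.496. The median over all genes compared was 1.15. Their RYGB-Success minus Pair-Fed differences were -1.74 for Nid2, -2.17 for LOC102555145, -1.91 for Loxl1, -1.50 for Ndn and -2.13 for Plac9. They were picked for nearness to Mme on these same arrays, so differences like that of Mme follow from the choice. The other members were less close to Mme, with Dclk1 at rank 20, Dpt at 126, Dpp4 at 310, Pdgfra at 839 and Gsn at 3791.

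The 2 nearest genes of the other members were not among the 5 of Mme, except LOC102555145 for Plac9. Nearest to Dclk1 were Timp2, an inhibitor of matrix metalloproteinases, at 0.348 and Cd248, endosialin, at 0.358. Plac9 lay nearest to LOC102555145 at 0.266 and Clmp, an adhesion molecule also known from adipocytes, at 0.28. For Dpp4 they were Lpar1, a lysophosphatidic acid receptor, at 0.32 and Clec4a1 at 0.348. Dpt was nearest to the collagen gene Col5a2 at 0.207 and the protease gene Adamts5 at 0.209. Pdgfra was nearest to Mtmr4 at 0.108 and Trappc13 at 0.13, and Gsn to Cidec, a lipid droplet protein of adipocytes, at 0.109 and Mgst1 at 0.128. A gene that varies little is near to many others by this measure, and the median distance from Pdgfra to all genes was 0.583, from Gsn 0.673.

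Other genes of adipose progenitors were taken from a list of 30, of which 29 were on the array and 24 in the upper 60% of fat. In RYGB-Success against Pair-Fed 19 of the 24 were lower and 5 higher, 12 lower and 2 higher without overlap (7.69% and 10.9% of all probe sets tested), with a median of -0.63 beside 0.11 over all probe sets. None passed limma's adjusted p of 0.05, as for all probe sets. The list was chosen with earlier results of these data known, so its counts are a description. One of its genes, Cd248, was also among the nearest to Dclk1 on these arrays. Cd248 read 4529, 2701 and 3487 in Pair-Fed fat, 1347, 852 and 434 in RYGB-Success fat, and 4062, 2620 and 1499 in RYGB-Fail fat, a difference of -2.14 ± 0.46 for RYGB-Success against Pair-Fed. RYGB-Success was clear of both other groups. Pi16, a marker of the same DPP4-positive progenitors, read 830.1, 581 and 3095, then 223, 333 and 124, then 1379, 357 and 726, a difference of -2.45 ± 0.66. Its groups were clear of each other in the same way. Cd55, which protects cells from complement, was at -0.96 ± 0.39, and Pdgfrb, a receptor of mural cells and progenitors, was at 0.79 ± 0.60, the opposite sign. In RYGB-Fail against Pair-Fed 20 of the 24 were lower and 4 higher, 2 of them lower without overlap (4.33% of all probe sets tested), with a median of -0.44 beside -0.09 over all probe sets. RYGB-Success against RYGB-Fail gave 15 lower and 9 higher, with a median of -0.29 beside 0.17.

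The families and partners of the members did not share one pattern in RYGB-Success against Pair-Fed. A list of 12 genes held neprilysin relatives, peptides it cleaves, natriuretic peptide receptors and Ace. Of these 6 were in the upper 60%, 5 lower and 1 higher, with a median of -0.25. Among them were Ece1, an endothelin-converting relative of neprilysin, at -0.07 ± 0.49, the angiotensin-converting enzyme gene Ace at -0.28 ± 0.42 and the natriuretic peptide receptor gene Npr1 at -0.22 ± 0.67. Npr3, the receptor that clears natriuretic peptides, was at -1.999 ± 0.61, with signals of 561, 928 and 776 in Pair-Fed fat, 392, 62.8 and 256 in RYGB-Success fat, and 340.3, 189 and 358 in RYGB-Fail fat. All 6 bypass arrays of Npr3 were below the 3 Pair-Fed arrays. Of the relatives and substrates of DPP4, 7 of 12 were lower and 5 higher, with Fap, the nearest relative, at -0.87 ± 0.50, Dpp8 at -0.30 and Dpp9 at 0.10. Of the PDGF ligands and receptors other than Pdgfra, 1 was lower and 2 higher, with the ligand gene Pdgfa at 0.23 ± 0.43 and Pdgfrl at -1.61 ± 0.59.

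Dclk2 and Dclk3, relatives of Dclk1, were at 0.39 ± 0.55 and -1.21 ± 0.47 in the same comparison. The sialomucins Podxl and Emcn, which are of the family of CD34 or share its endothelial site, were at 0.36 ± 0.41 and -0.26 ± 0.39. In their joint list 2 of 6 were lower and 4 higher. Of 6 gelsolin relatives 4 were lower and 2 higher, with Capg, an actin-capping protein abundant in macrophages, at -0.92 ± 0.43 and Scin at -0.10. Of 6 dermatopontin partners and related matrix genes 4 were lower and 2 higher, with a median of -1.30. The 4 lower ones did not overlap with Pair-Fed, a state of 7.69% of all probe sets tested, and included Fn1, fibronectin, at -2.48 ± 0.58 and Dcn, decorin, at -1.79 ± 0.62, while Fmod was at 0.51 ± 0.41 and Tgfb1 at 0.40 ± 0.94.

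Markers of whole cell types differed between the groups of fat as well. Of 10 fibroblast markers 9 were in the upper 60% of fat, and all 9 were lower in RYGB-Success than in Pair-Fed fat, with a median of -1.36, and in RYGB-Fail, with a median of -0.75. The summed signal of all 10 was 108070 to 139650 in Pair-Fed, 46889 to 85537 in RYGB-Success and 61665 to 103120 in RYGB-Fail. RYGB-Success 3 had the lowest sum, as it had for Dpt. Macrophage markers in the upper 60% were lower in 8 of 8, at a median of -0.99 in RYGB-Success against Pair-Fed, with sums of 19401 to 42198, 11945 to 17392 and 11041 to 30482 in the 3 groups. Adipocyte markers were lower in 5 of 8 and higher in 3, at a median of -0.12, and their sums overlapped, 106040 to 178560, 90581 to 157980 and 69514 to 193060. In RYGB-Fail against Pair-Fed, adipocyte and macrophage markers were lower in 8 of 8 each, at medians of -0.47 and -0.515, beside -0.09 over all probe sets. There mural markers were 6 lower and 1 higher, at -0.37, endothelial markers 5 lower and 2 higher, at -0.19, and lymphocyte markers 3 lower and 4 higher, at 0.20.

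In RYGB-Success against Pair-Fed, markers of most other cell types were higher, counted again in the upper 60%. Those of mural cells were 4 lower and 3 higher, at a median of -0.0018. Endothelial markers were higher in 6 of 7 in RYGB-Success, at a median of 0.59, lymphocyte markers in 7 of 7, at 1.79, blood cell markers in 4 of 4, at 1.72, mesothelial markers in 3 of 3, at 1.25, and those of skin and mammary epithelium in 5 of 5, at 2.65. The epithelial sum was 726 on RYGB-Success 1, 10786 on RYGB-Success 2 and 6410 on RYGB-Success 3, against 688 to 847 in Pair-Fed. The lymphocyte sum was 2470.5, 3606 and 17492 on the same arrays, against 1909.8 to 2592 in Pair-Fed, so RYGB-Success 1 lay within the Pair-Fed range for both lists. Blood cell sums were 15193 to 41590.0 in RYGB-Success and 5225 to 8565 in Pair-Fed, without overlap, while those of endothelial and mesothelial markers overlapped. Skeletal muscle markers were higher in 9 of 10 in RYGB-Success, at a median of 1.47 against Pair-Fed, with overlapping sums of 1557 to 3267 and 958 to 1797. In RYGB-Fail they were higher in 10 of 10, at a median of 6.32 against Pair-Fed, with sums of 60892, 220200 and 4835 on RYGB-Fail 1 to 3. No marker was listed at 0. The part of the other marker lists in the members' differences was not tested.

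**Figure D3:**
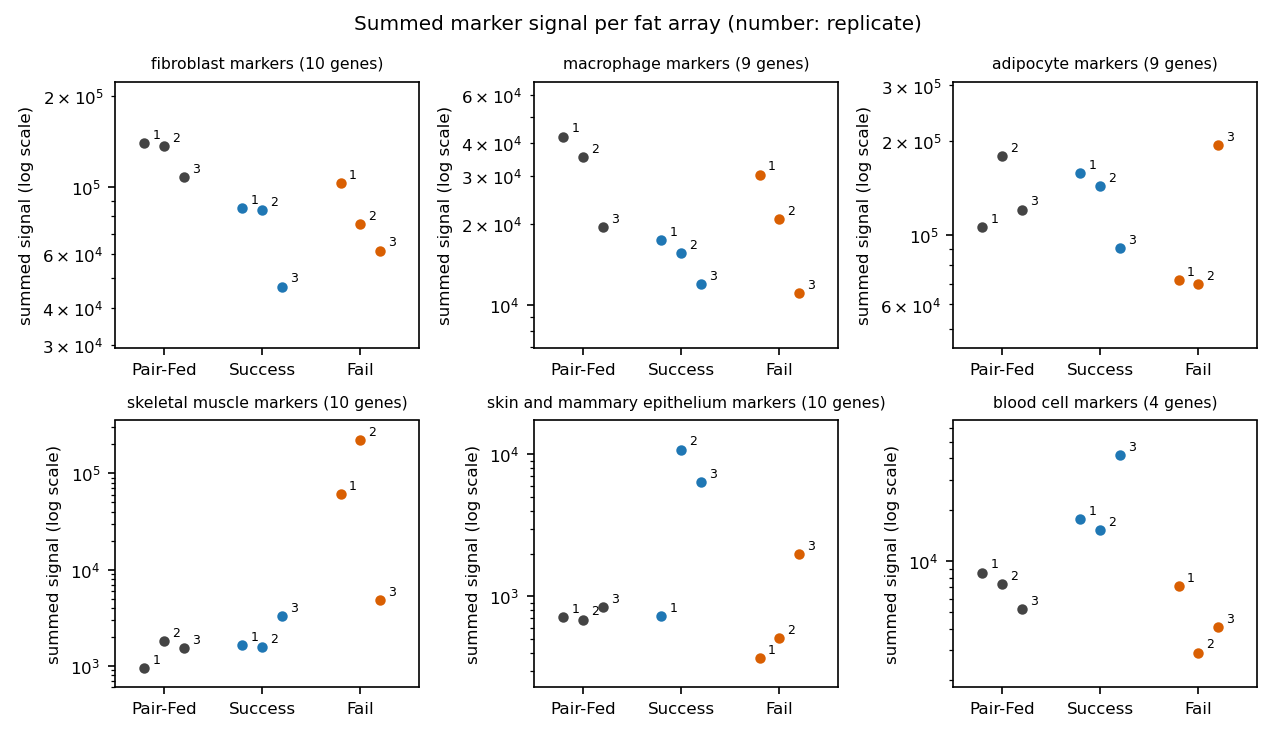
Summed signal of 6 lists of cell type markers on each fat array, on a log axis, with the replicate number beside each point. Fibroblast and macrophage sums are lower on all RYGB-Success arrays than on any Pair-Fed array, adipocyte sums overlap between all groups, and RYGB-Fail 1 and 2 carry muscle sums of 60892 and 220200.

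In hypothalamus, which had no part in the choice of the genes, none of the members differed between groups by limma at an adjusted p of 0.05. There 7 of the 13 probe sets, for 5 genes, were in the upper 60%, at a mean signal of at least 52.7. Mme and Dpp4 were below it. Of the 7, 0 were called in each comparison, where limma called 0.00537% of all 18625 probe sets higher and 0.00537% lower in RYGB-Success against Pair-Fed, 0% in RYGB-Fail against Pair-Fed, and 0% higher and 0.00537% lower in RYGB-Success against RYGB-Fail. At an unadjusted limma p under 0.05 there were 3 of the 7 in RYGB-Success against Pair-Fed, 0 in RYGB-Fail against Pair-Fed and 1 in RYGB-Success against RYGB-Fail. Of all 18625 probe sets, 1293 were higher and 1154 lower at that threshold in the first comparison. In the second 337 were higher and 108 lower, and in the third 415 and 705. The beta-actin control probe sets read 6.65 to 178.5 times as high at the 3′ as at the 5′ end in hypothalamus, beside 2.46 to 24.3 in fat. Those of GAPDH gave 1.58 to 6.22 and 2.91 to 5.89. The effect of this spread on the comparisons within or between tissues was not tested.

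Dclk1 had the lowest adjusted p among them. By 1369686_at its signals were 5842, 6739 and 7081 in Pair-Fed hypothalamus and 5314, 4443 and 1678 in RYGB-Success hypothalamus, and 5556, 4211 and 5944 in RYGB-Fail. The difference of RYGB-Success from Pair-Fed was -0.94 ± 0.33, with a limma adjusted p of 0.288, and it was -0.43 without RYGB-Success 3, an array of low weight, 0.331. By 1389706_at, with 9963, 10085 and 10918 in Pair-Fed, 7158, 8069 and 9553 in RYGB-Success, and 9759.7, 7979 and 8499 in RYGB-Fail, it was -0.33 ± 0.17, adjusted p 0.412. By 1387276_at, with 1684, 2291 and 1705 in Pair-Fed, 2132, 1933 and 2047 in RYGB-Success, and 2084, 1721 and 2135 in RYGB-Fail, it was 0.12 ± 0.20, adjusted p 0.823. The probe set with the highest fat signal thus gave values in hypothalamus that overlapped in all 3 groups.

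Gsn read 1869.9, 2487 and 1969 in Pair-Fed hypothalamus, 967, 2253 and 931 in RYGB-Success, and 2352, 1895 and 2085 in RYGB-Fail. RYGB-Success 1 and 3 were low and RYGB-Success 2 was not, and the difference from Pair-Fed was -0.72 ± 0.30, with a limma adjusted p of 0.339. It was -1.14 without RYGB-Success 2, with an adjusted p of 0.0555, and ran from -1.14 to -0.50 over single arrays left out. Pdgfra, in brain a marker of oligodendrocyte precursors, read 8861, 10222 and 7937, then 7215, 9310.4 and 16327, then 9465, 7397 and 8053. Its difference of 0.20 ± 0.25 (adjusted p 0.745) became -0.13 without RYGB-Success 3. Dpt was at -1.31 ± 0.60, adjusted p 0.376, on signals of at most 139.8, and Plac9 at -0.11 ± 0.63, adjusted p 0.958. In RYGB-Fail against Pair-Fed every adjusted p was 1, and in RYGB-Success against RYGB-Fail the lowest was 0.784.

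Between the tissues of Pair-Fed rats, all 7 genes differed by limma, 6 higher in fat and 1, Dclk1, lower by the probe set with the highest mean signal over both tissues. Of all 31042 probe sets tested, 22.8% were higher in fat and 14.9% lower. The Pair-Fed fat arrays had also entered the choice of the genes. The members' p-values between tissues are therefore not independent of that choice. Of the 13 member probe sets 9 were higher and 2 lower, and the low probe sets of Dclk1 and Plac9, at 0.63 ± 0.64 and 1.34 ± 0.62, did not pass, with adjusted p of 0.47 and 0.112. Dpt had the largest differences, 8.26 ± 0.42 and 8.64 ± 0.27, with adjusted p of 9.59e-08 and 1.09e-08. Plac9 followed at 4.81 ± 0.41 (adjusted p 4.79e-06), Dpp4 at 4.65 ± 0.40 and 4.78 ± 0.56 (adjusted p 4.95e-06 and 5.22e-05) and Mme at 4.23 ± 0.39 (adjusted p 7.47e-06). These genes were near the low end of the hypothalamus arrays, where 1 unit of log2 is few units of signal. Mme read 38.2, 63.5 and 33.6 there in Pair-Fed, and 7.63 to 82.7 over the other 6 arrays, and with a pseudocount of 10% of the mean signal its difference was 2.94. Every fat array of Mme was above every hypothalamus array.

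Gsn and Pdgfra were far above the low end in both tissues. By mean log2 signal Gsn was at percentile 99.9 of fat and 90.3 of hypothalamus, and Pdgfra at 99.6 and 99.2. Whether differences are read in full so near the top of the array was not tested. Gsn was 16.4-fold higher in Pair-Fed fat, a difference of 4.03 ± 0.19 with an adjusted p of 7.48e-08. Pdgfra was 2.15-fold higher, 1.10 ± 0.16 with an adjusted p of 0.000248, and the difference was 0.44 (adjusted p 0.389) within RYGB-Success and 0.79 (adjusted p 0.0959) within RYGB-Fail. Of the 29 other progenitor genes on the array, 19 were called higher in Pair-Fed fat and 1 lower, with a median of 2.58 beside 0.49 over all probe sets. Cd248 was at 5.46 ± 0.37 (adjusted p 8.05e-07), Cd55 at 4.70 ± 0.37 (2.43e-06) and Pi16 at 4.24 ± 0.54 (9.07e-05), by limma. Among relatives, Fap was higher in fat by 3.95 ± 0.39 and Dpp6, a neuronal relative of DPP4 without peptidase activity, was lower, at -6.75 ± 0.71, with adjusted p of 1.23e-05 and 2.17e-05.

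**Figure D4:**
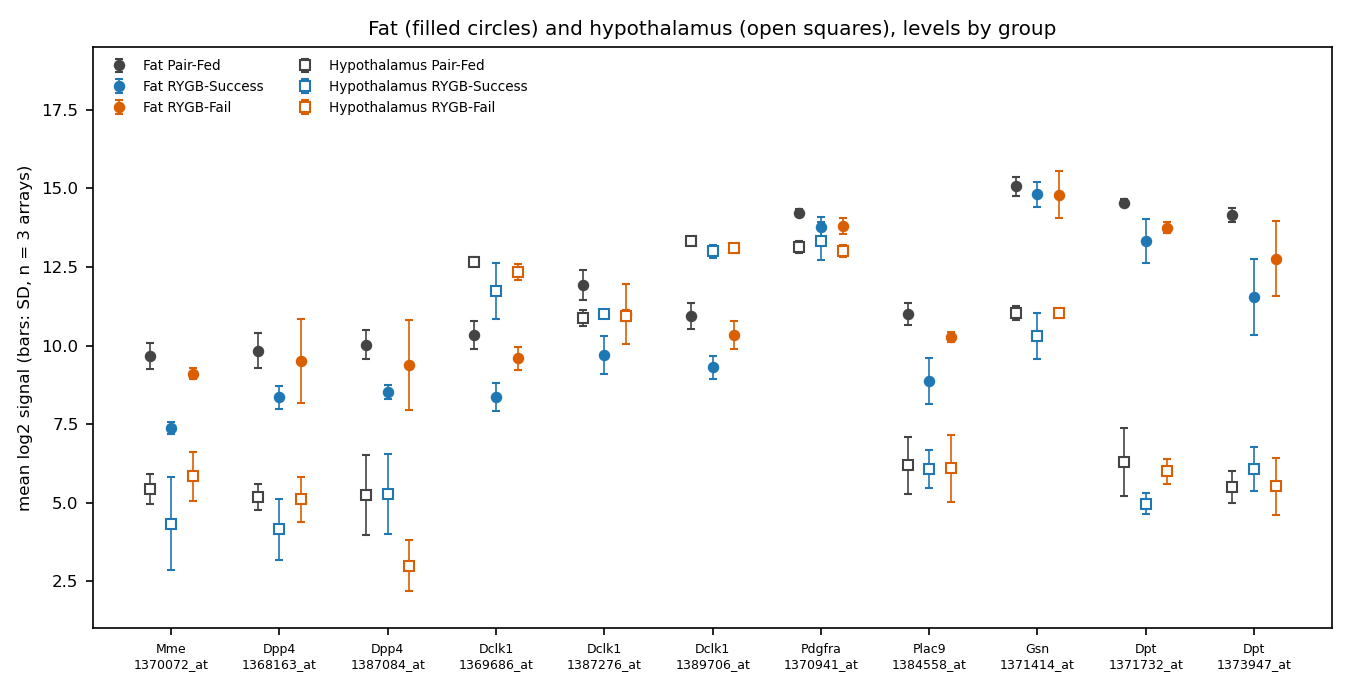
Mean log2 signal of the same 11 probe sets in the 3 groups of fat (filled circles) and of hypothalamus (open squares), with the SD over 3 arrays as bars. Mme, Dpp4, Plac9 and Dpt are high in fat and low in hypothalamus in every group, Pdgfra is close in both, and the Dclk1 probe sets 1369686_at and 1389706_at are higher in hypothalamus while 1387276_at crosses.

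The Dclk1 probe sets disagreed on the tissue. In Pair-Fed rats 1369686_at was 5.07-fold lower in fat than in hypothalamus, -2.34 ± 0.22 with a limma adjusted p of 1.03e-05, and 1389706_at was 5.22-fold lower, -2.38 ± 0.21 with an adjusted p of 5.18e-06. By contrast 1387276_at was 2.08-fold higher in fat, 1.06 ± 0.24 with an adjusted p of 0.00565. That last value was 0.55 (adjusted p 0.137) after median centring, 0.06 (adjusted p 0.944) within RYGB-Fail and -1.30 (adjusted p 0.00832) within RYGB-Success. Over all 9 fat and 9 hypothalamus arrays the mean tissue differences were -2.82 for 1369686_at, -2.95 for 1389706_at and -0.06 for 1387276_at. The gap between 1387276_at and 1389706_at was 2.89. On each array by itself, the log2 ratio of 1387276_at to 1389706_at was -0.04 to 1.34 in fat and -2.68 to -1.75 in hypothalamus, with no overlap. Between 1369686_at and 1387276_at the gap was -2.76, and between 1369686_at and 1389706_at it was 0.13. So 2 of the 3 probe sets had like mean tissue differences and the third did not, and in fat all 3 were lower in RYGB-Success than in Pair-Fed. Which transcripts each probe set reads was not analysed here.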

How the data were processed

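The labels' protocols name Qiagen RNeasy for extraction, NuGEN WT Ovation for amplification and biotin as the label. Per the submitters' processing notes, MAS5 and GCOS produced the linear intensity of each probe set that the authors deposited. The sources used here give no settings or versions for either. Trimmed means of all arrays were between 500.1 and 500.2, so arrays had been scaled before deposit. Of 31099 probe sets, 20826 had 1 gene symbol, 436 several and 9780 none, and 57 controls were left out; the gene IDs of 20758 of the first matched RefSeq genes of GRCr8. The number of arrays limits the precision.

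Log2 signals, without a pseudocount, went into limma 3.58.1 under R 4.3.3 (lmFit, eBayes with trend), over the 9 arrays of a tissue and the upper 60% of probe sets, and between tissues over the 6 Pair-Fed arrays and 31042 probe sets without a filter. P-values are 2-sided and adjusted by Benjamini-Hochberg at 0.05. The fit was tested on simulated data. Plots used matplotlib 3.10.9. A gene with several probe sets was counted by its brightest over the arrays compared. Non-member genes named are the first 4 of each list in the upper 60% of fat, the 5 nearest in profile to Mme and the 2 nearest to each other member. The pathway lists share Dcn, Lum and Mfap5 with the fibroblast markers, and Cd248, Npr3 and Pi16 were given per array after their values were seen. The members and lists were chosen with earlier results of these data known. Replicate numbers were not used to pair arrays in the fit reported. Deviations of same-numbered arrays from their group means correlated at -0.163 to 0.29. Arrays of different number were not compared in this way, so these values cannot show whether same-numbered arrays share a rat, and the labels do not say.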

Additional observations from a re-analysis of the deposited data

Results flagged for a closer look

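Dclk1 by 1387276_at differed in opposite directions in the 2 tissues in RYGB-Success against Pair-Fed. The difference was 0.12 in hypothalamus beside -2.24 in fat. This difference between tissues was not tested, and the hypothalamus value alone is within its error of 0.20.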

How the results depend on the processing

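Alternatives were a pseudocount, no filter or a stricter one, quantile normalization, median centring, array weights, the mean of a gene's probe sets, only the 2 groups compared, each array left out and a replicate block. The median of the 7 genes in fat stayed below 0 under all of them. For RYGB-Success against Pair-Fed it was -1.69 to -1.25 with single arrays left out and -1.88 under median centring. For RYGB-Fail against Pair-Fed it was -0.74 to -0.49, and for RYGB-Success against RYGB-Fail -1.31 to -0.34, lowest without RYGB-Fail 3 and highest without RYGB-Fail 1. The fit with a replicate block, a pairing by number, left the 3 medians at -1.50, -0.64 and -0.87 and the called genes at 0, 0, 0 in hypothalamus and 7 between tissues. The same 7 genes' calls between tissues were 6 within RYGB-Success and 6 within RYGB-Fail.

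In hypothalamus 26 of 288 alternative values of single probe sets changed sign, none of them called in the fit reported. For RYGB-Success against Pair-Fed, Dclk1 1387276_at became -0.12 and Pdgfra -0.033 under median centring, and Plac9 0.25 and Pdgfra -0.13 with array weights. For RYGB-Fail against Pair-Fed, Dclk1 1387276_at became -0.038 and Gsn -0.10 under median centring, and Gsn -0.038 with weights. For RYGB-Success against RYGB-Fail, Dclk1 1387276_at became -0.077 under centring and Plac9 0.55 with weights. With single arrays left out, RYGB-Success against Pair-Fed ran from -0.58 to 0.34 for Plac9 and -0.13 to 0.46 for Pdgfra. RYGB-Fail against Pair-Fed ran from -0.0038 to 0.22 for Dclk1 1387276_at, -0.69 to 0.36 for Plac9, -0.90 to 0.13 for Dpt and -0.074 to 0.13 for Gsn. RYGB-Success against RYGB-Fail ran from -0.051 to 0.10 for Dclk1 1387276_at, -0.20 to 0.011 for Dclk1 1389706_at, -0.47 to 0.58 for Plac9 and -0.011 to 0.58 for Pdgfra. Between tissues Dclk1 1380429_at became -0.11 after quantile normalization, and within RYGB-Success Dclk1 1380429_at was -0.66, Dclk1 1387276_at -1.30 and Plac9 1393812_at -1.01. The causes were not tested.

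Signals near the low end of the arrays scatter widely on a log scale, which limits Mme, Dpp4, Dpt and Plac9 in hypothalamus. With 3 arrays a group, RYGB-Fail values of Dpp4, Gsn, Dclk1 1387276_at and Dpt 1373947_at depend on single arrays.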
